A study of Homo sapiens with 12 samples.

Results

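The genes described here encode the collagens, the laminins, 4 further basement membrane and matrix glycoproteins (FN1, NID1, NID2 and HSPG2) and the integrins that bind them. They were taken by symbol: every numbered collagen chain, every laminin alpha, beta or gamma chain, and every integrin alpha or beta chain. Of the 63241 genes counted, 84 carried such a symbol, and the 76 with at least 10 counts over all libraries were kept: 41 collagens, 11 laminins, 20 integrins and the 4 glycoproteins. The 8 left out were ITGA8, LAMB4, ITGA4, COL10A1, ITGB7, COL4A3, ITGAM and COL6A6, with 1 to 9 counts each. Of the 76, 55 passed the filter on low counts and were tested (27 collagens, 10 laminins, 15 integrins and 3 glycoproteins), and the levels of the other 21 are given as they stand. Just inside the minimum of 10 lay COL6A5 with 10 counts and COL15A1 with 11, and just outside it ITGAM with 9 and LAMB4 with 8.

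Basement membranes are thin sheets on which epithelial and germ cells rest; their laminin and type IV collagen networks are linked by nidogen and perlecan. Fibrillar collagens form the ropes of connective tissue, while collagens of other families decorate fibrils, anchor membranes or span the cell surface. Integrins are paired alpha and beta chains that bind laminin, collagen or fibronectin outside the cell and couple them to the actin cytoskeleton inside.

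The study asked whether the chromatin reader BRD9 could be a drug target in testicular germ cell tumours. BRD9 is a subunit of a SWI/SNF chromatin remodelling complex, and I-BRD9 is a small-molecule ligand of its bromodomain. Established human lines labelled as wild type were used: 2102 EP, an embryonal carcinoma line grown in DMEM, and TCam-2, a seminoma line grown in RPMI. Each line received 15 µM I-BRD9 or the solvent DMSO for 24 h, with 3 libraries a group and 12 in all. The libraries are labelled as biological replicates, but how the cultures were kept apart is not given, so p-values measure the spread between these samples, which may be partly technical. Each tumour type is represented by 1 line, and the lines differ in medium as well as in origin.

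RNA was counted at transcript 3′ ends, so that a transcript gives about 1 fragment whatever its length. Libraries held 7290335 to 10053366 counts, and the genes described here took up 1001 to 2572 in each 1000000 of them. Levels of single genes are given in CPM (counts scaled to a library total of 1000000, after TMM scaling), and 3 counts correspond to 0.296 to 0.408 CPM. The labels fit their markers in part. With DMSO, SOX2, GDF3 and DNMT3B stood at 468, 420.2 and 521 CPM in 2102 EP and at 17.1, 4.52 and 87.4 in TCam-2. SOX17, TFAP2C and PRAME stood at 193, 1208 and 151 CPM in TCam-2 and at 0.0774, 145 and 0.0786 in 2102 EP. NANOG and POU5F1, markers of both tumour types, were higher in TCam-2 (524.5 and 694.9 against 175.3 and 386.1 CPM). ALPL, a seminoma marker, was higher in 2102 EP (52.3 against 28.5 CPM). TNFRSF8, the CD30 antigen of embryonal carcinoma, was near the detection limit in 2102 EP (0.825 CPM) and no lower in TCam-2 (1.33 CPM). NANOS3 was near that limit in TCam-2 (1.04 CPM).

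The members' summed level differed more between the lines than between treatments. Laminin transcripts summed to 178 ± 4.15 in 1000000 library counts (SD, n = 3) in DMSO-treated 2102 EP cells and to 718 ± 40.5 in TCam-2, a ratio of 4.03. Collagens summed to 432 ± 17.7 and 887 ± 27.3, and integrins to 480.2 ± 8.46 and 796 ± 26.8. With I-BRD9 the integrin sum was lower in both lines, at 367 ± 23.2 and 664 ± 8.43, and the laminin sum was higher, at 220.1 ± 25.2 and 880 ± 48.9. In 2102 EP this laminin difference came from LAMC1: without that gene the log2 ratio was 0.0378 in place of 0.307. The collagen sum was 392 ± 24.9 in 2102 EP and 727 ± 22.1 in TCam-2 with I-BRD9. In 2102 EP the glycoprotein sum was 26.3 ± 11.6 in the controls and 41.3 ± 8.51 in the treated libraries, and 103 ± 11.9 and 70.7 ± 6.26 in TCam-2. Libraries did not overlap in any of these comparisons of class sums except those of collagens and glycoproteins between the 2102 EP treatments. The 2-sided exact permutation test gave p = 0.1 wherever they did not overlap, which is the smallest value that 3 against 3 libraries allow, and p = 0.2 for the 2 others. Without FN1 the glycoprotein log2 ratio in TCam-2 turned from -0.544 to 0.29, and that between the lines fell from 1.97 to 0.276 with DMSO and from 0.776 to 0.0299 with I-BRD9.

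**Figure D1:**
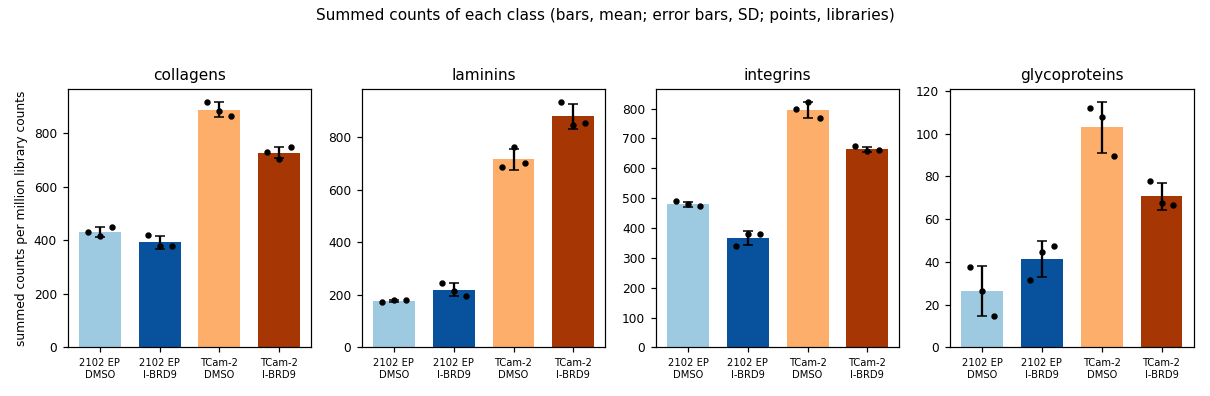
Summed level of the collagens, laminins, integrins and glycoproteins in 1000000 library counts (y axis), by group (x axis). Bars are means of 3 libraries, error bars SD and points single libraries. All 4 sums are higher in TCam-2 than in 2102 EP, that of the glycoproteins mostly through FN1. The integrin sum, most of it ITGB1 and ITGB5, is lower with I-BRD9 in both lines.

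In 2102 EP, I-BRD9 lowered the basement membrane collagens COL4A1 and COL4A2, the integrin beta chains ITGB1 and ITGB5 and the alpha chain ITGA9. It raised the cartilage collagen COL2A1, COL5A1, fibronectin (FN1), the laminin gamma 1 chain (LAMC1) and the alpha chains ITGA3 and ITGAV. Of the 55 tested members, 24 passed (43.6%, against 36.8% of all genes tested): 14 rose (25.5%) and 10 fell (18.2%) at an adjusted p under 0.05 in edgeR's quasi-likelihood test. Among all 15614 genes tested, 18.2% rose and 18.6% fell, so the share of falling members was near the background. By class, 8 of 27 collagens rose and 6 fell, 4 of 15 integrins rose and 3 fell, 1 of 10 laminins rose (LAMC1) and 1 fell, and FN1 was the glycoprotein that rose. Median log2 fold changes were 0.32 for collagens, 0.07 for laminins, 0.17 for integrins and 0.45 for glycoproteins, against 0.002 over all genes tested. In 31 of the 55 (56.4%) the 3 treated libraries lay on one side of the 3 controls, against 46.3% of all genes. These are bulk samples, in which fewer cells of a type and less RNA per cell cannot be told apart.

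In TCam-2, I-BRD9 lowered COL4A1 and COL4A2 again, together with COL17A1, COL1A2, FN1, the laminin alpha 4 chain (LAMA4) and the integrin chains ITGA6, ITGA9 and ITGB5. It raised COL5A1, ITGA2, ITGA3 and the laminin chains LAMB1 and LAMA5. Here 19 of the 55 members passed (34.5%, against 31.8% of all genes): 7 rose (12.7%) and 12 fell (21.8%), beside 15.3% and 16.5% of all genes tested. Collagens made up 2 of the rises and 6 of the falls, laminins 3 and 1, integrins 2 and 4, and FN1 was the glycoprotein that fell. Medians were -0.21 for collagens, 0.23 for laminins, 0.06 for integrins and 0.13 for glycoproteins, against 0.007 over all genes. In 28 members (50.9%) the treated and control libraries did not overlap, beside 45.7% of all genes. Called in both lines and in the same direction were 9 members (16.4%, against 16.8% of all genes tested): COL5A1 and ITGA3 rose, and COL4A1, COL4A2, COL1A2, COL17A1, COL26A1, ITGA9 and ITGB5 fell. FN1 and ITGA1 were called in opposite directions (3.64% of the members, against 1.75% of all genes).

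Markers of other cell types and states moved with the treatment. The summed level of 7 fibroblast and stromal markers was 217 to 238 CPM in the DMSO and 114 to 135 CPM in the I-BRD9 libraries of 2102 EP, and 43.7 to 47.8 and 4.75 to 8.60 CPM in TCam-2. Nearly all of it was THY1, which pluripotent cells also express, and MFAP5. The defining fibroblast markers DCN, FAP and LUM were at 0 in 2102 EP and averaged at most 0.120, 0.0394 and 0.65 CPM in the TCam-2 groups. The summed level of 8 embryonal carcinoma markers was 2003 to 2127 CPM in the controls and 616 to 687 in the treated libraries of 2102 EP, and that of 10 seminoma markers 2763 to 3194 and 1581 to 1735 in TCam-2. NANOG and POU5F1 are on both lists, and in TCam-2 they averaged 524.5 and 694.9 CPM in the controls and 12.8 and 323.0 in the treated libraries. Of the seminoma markers KIT alone was higher in treated TCam-2, at 49.4 against 26.5 CPM. Trophoblast markers summed to 19.6 to 20.8 and 39.5 to 43.6 CPM in 2102 EP and to 174 to 188 and 149 to 160.4 in TCam-2. Of the 6 trophoblast markers, CDX2 averaged 0.283 CPM in the controls and 16.3 in the treated libraries of 2102 EP, and GATA3 14.6 and 21.9. In TCam-2 GATA3 averaged 71.9 and 107.6 and KRT7 104.3 and 44.9. CGB3 was at 0 in every group and HSD3B1 at 0 in 2102 EP. What part such shifts have in the members' changes was not tested.

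**Figure D2:**
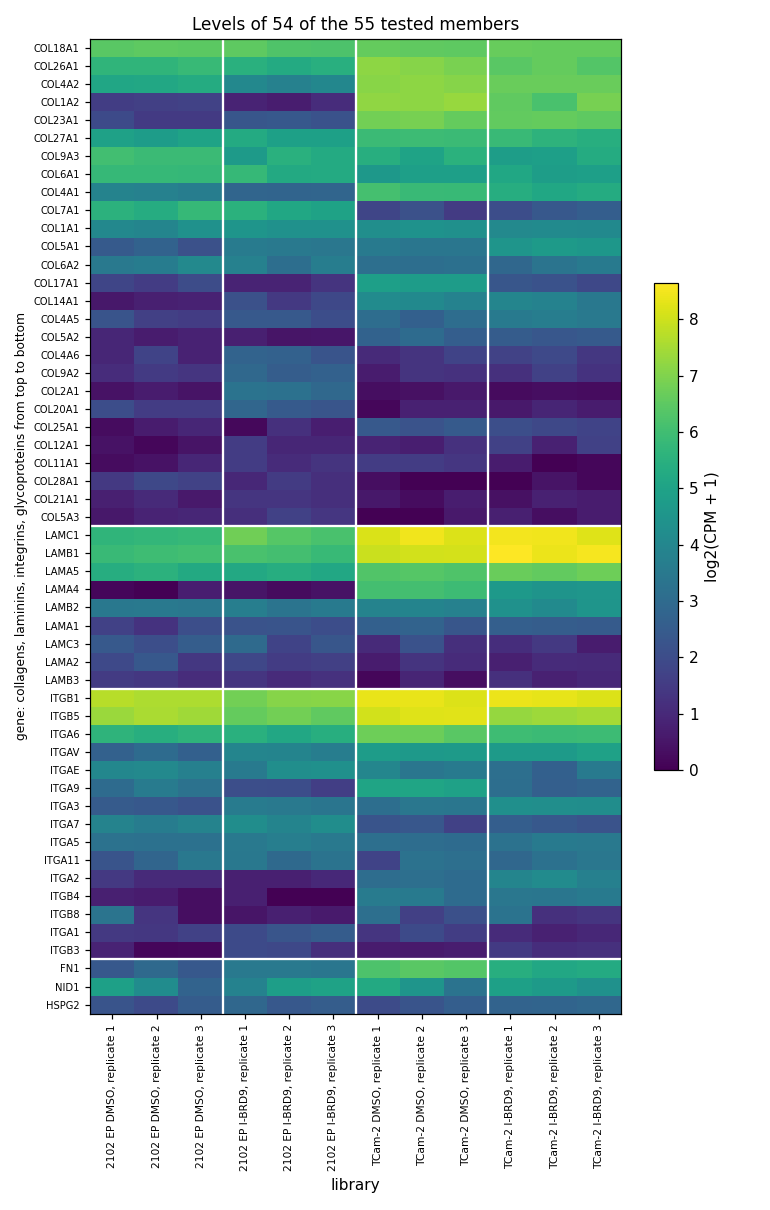
Level of the 55 tested members (y axis, by class and falling mean level) in each of the 12 libraries (x axis), 1 laminin left out, as log2(CPM + 1) in colour. White lines separate classes and groups. LAMA4 and COL1A2 are dark in the 6 libraries of 2102 EP and bright in the 6 of TCam-2, and ITGB8 and NID1 vary within groups.

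Type IV collagen, the sheet-forming collagen of basement membranes, fell in both lines through its alpha 1 and alpha 2 chains, which assemble with each other. COL4A1 (chr13:110148963-110307233, minus strand) and COL4A2 (chr13:110305812-110513209, plus strand; GRCh38, GENCODE 29) lie head to head. Their RefSeq starts are 127 bases apart, at 110307157 and 110307284, and the stretch between them is printed because both fell. It is chr13:110307157-110307284 of GRCh38.p14, given on the plus strand, with capitals for a CCAAT box and a GC box (GGGCGG).
COL4A1 to COL4A2 start: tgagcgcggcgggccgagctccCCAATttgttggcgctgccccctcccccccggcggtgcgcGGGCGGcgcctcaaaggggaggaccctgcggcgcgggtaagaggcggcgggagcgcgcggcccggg
This stretch has a GC content of 79.7%. Searched on both strands, CCAAT is found in 34.6% and GGGCGG in 45.0% of the 35116 RefSeq promoter windows, each of which runs from 250 bases before a start to 50 after it. The matches are a description of the letters and not of binding.

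COL4A1 stood at 13.6, 12.8 and 11.6 CPM in the 3 DMSO libraries of 2102 EP and at 6.14, 5.91 and 6.14 with I-BRD9 (log2 fold change -1.07, SE 0.15, adjusted p = 4.81e-06). In TCam-2 it stood at 68.1, 56.6 and 56.1 in the controls and 40.4, 34.8 and 38.7 in the treated libraries (log2 fold change -0.66, SE 0.11, adjusted p = 6.75e-05). All 3 treated libraries lay below all 3 controls in each line. COL4A2 moved from 33.6, 35.7 and 38.6 to 15.5, 12.9 and 14.9 CPM in 2102 EP (log2 fold change -1.32, SE 0.10, adjusted p = 9.29e-10). In TCam-2 it moved from 139, 143 and 133 to 101, 101 and 101 (log2 fold change -0.45, SE 0.08, adjusted p = 0.000236). The fall of COL4A2 was larger in 2102 EP, with a difference between the lines of 0.87 (SE 0.13, adjusted p = 7.01e-05). For COL4A1 the difference was 0.41 (SE 0.18, adjusted p = 0.162) and did not pass the test.

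The other tested type IV chains, COL4A5 and COL4A6, did not follow this pair. COL4A5 (chrX:108439844-108697545, plus strand) and COL4A6 (chrX:108155607-108439497, minus strand) are also neighbours that start away from each other. COL4A6 rose in 2102 EP, from 0.915, 2.36 and 0.767 to 5.73, 5.51 and 3.79 CPM (log2 fold change 1.88, SE 0.41, adjusted p = 0.000928). In TCam-2 it stood at 1.06, 1.49 and 2.33 in the controls and 2.27, 2.76 and 1.62 in the treated libraries, and the groups overlapped (log2 fold change 0.45, SE 0.42, adjusted p = 0.455). COL4A5 rose in TCam-2, from 7.55, 5.31 and 7.47 to 10.6, 11.7 and 10.2 CPM (log2 fold change 0.68, SE 0.24, adjusted p = 0.031). That call was lost without TCam-2 DMSO replicate 2 or TCam-2 I-BRD9 replicates 1, 2 or 3 (adjusted p from 0.0529 to 0.151). In 2102 EP its log2 fold change was 0.58 (SE 0.28) and did not pass the test (adjusted p = 0.114). COL4A4, with 13 counts in all, was not tested, and its partner COL4A3 was left out with 1 count.

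Fibrillar collagens changed in both directions, and the member with the largest rise in 2102 EP, COL2A1, belongs to cartilage. COL2A1, the chain of type II collagen, stood at 0.343, 0.590 and 0.384 CPM in the controls and at 8.73, 8.31 and 6.58 in the treated libraries in 2102 EP (log2 fold change 4.12, SE 0.40, adjusted p = 3.32e-08). Every TCam-2 library was below 0.5 CPM, with 0.236, 0.318 and 0.490 for DMSO and 0.198, 0.240 and 0.232 for I-BRD9. COL5A1, which initiates and regulates the width of fibrils, rose in both lines. It went from 4.46, 5.66 and 3.45 to 11.2, 10.4 and 9.71 CPM in 2102 EP (log2 fold change 1.20, SE 0.19, adjusted p = 2.77e-05). In TCam-2 it went from 10.5, 9.55 and 9.55 to 21.8, 25.1 and 23.1 (log2 fold change 1.24, SE 0.17, adjusted p = 4.11e-06). Without overlap in either line, its 2 changes differed by 0.04 (SE 0.26, adjusted p = 0.951), which did not pass the test.

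Type I collagen, the most widespread fibrillar collagen, is made of chains of COL1A1 and COL1A2. COL1A2 fell in TCam-2 from 148, 145 and 158 to 90.97, 70.4 and 118 CPM (log2 fold change -0.69, SE 0.13, adjusted p = 0.000326), with no overlap but a wide spread among the treated libraries. In 2102 EP, where it was low, it stood at 1.95, 2.12 and 2.30 in the controls and 0.818, 0.601 and 1.12 in the treated libraries (log2 fold change -1.32, SE 0.40, adjusted p = 0.0132). The call in 2102 EP was lost without 2102 EP I-BRD9 replicates 1 or 2 (adjusted p from 0.0694 to 0.0706) and with limma voom (adjusted p = 0.136). COL1A1 did not pass the test in either line: its log2 fold changes were 0.32 (SE 0.14) in 2102 EP and -0.25 (SE 0.14) in TCam-2. COL11A1, a minor fibril chain of cartilage, stood at 1.89, 1.91 and 1.59 CPM in the controls and 0.593, 0 and 0.116 in the treated libraries in TCam-2, where it fell (log2 fold change -2.76, SE 0.68, adjusted p = 0.00326). In 2102 EP it stood at 0.229, 0.354 and 0.895 and 1.91, 1.10 and 1.45 and missed the threshold (log2 fold change 1.58, SE 0.64, adjusted p = 0.0586). COL5A2, COL5A3 and COL27A1 did not pass in either line, with log2 fold changes of -0.59, 1.20 and 0.11 in 2102 EP and -0.41, 1.64 and -0.29 in TCam-2. COL3A1, COL11A2 and COL24A1 were below the filter.

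Of the collagens that span the membrane, COL17A1 had the deepest fall. COL17A1 (chr10:104031286-104085957), the hemidesmosome collagen that ties epithelial cells to their basement membrane, stood at 28.3, 26.8 and 26.7 CPM in the DMSO and 3.96, 3.48 and 2.67 in the I-BRD9 libraries of TCam-2. This was 8.02-fold lower (log2 fold change -3.00, SE 0.21, adjusted p = 1.96e-10). In 2102 EP the levels were 2.52, 1.89 and 3.07 and 0.818, 0.801 and 1.45 CPM (log2 fold change -1.26, SE 0.31, adjusted p = 0.00265), again without overlap. COL23A1, another membrane collagen, rose in 2102 EP from 2.86, 1.77 and 1.79 to 3.95, 4.21 and 3.57 (log2 fold change 0.86, SE 0.21, adjusted p = 0.00281). In TCam-2 it stood at 111, 116 and 97.3 and 94.9, 95.6 and 90.2 CPM. All 3 treated TCam-2 libraries were lower, but the change did not pass the test (log2 fold change -0.21, SE 0.10, adjusted p = 0.113). COL25A1, a membrane collagen of neurons and muscle, did not pass in either line (0.39 and -0.58), and COL13A1 was not tested.

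Of the 6 tested collagens that sit on fibrils (the FACIT family), 5 passed the test in 2102 EP, 4 of them rising, beside 36.8% of all genes called and 18.2% rising. COL14A1 rose there from 0.458, 0.707 and 0.767 to 3.41, 1.70 and 2.68 CPM (log2 fold change 1.97, SE 0.36, adjusted p = 0.000169), while the TCam-2 libraries overlapped, with 17.1, 16.1 and 13.3 and 14.2, 13.2 and 10.1. COL9A2 and COL9A3, chains of the type IX collagen of cartilage, went opposite ways in 2102 EP. COL9A2 rose from 1.14, 1.77 and 1.53 to 6.54, 4.81 and 5.47 (log2 fold change 1.91, SE 0.36, adjusted p = 0.000247), and COL9A3 fell from 64.1, 58.7 and 58.3 to 25.2, 44.2 and 38.4 (log2 fold change -0.74, SE 0.19, adjusted p = 0.00938). An exon of COL9A3 overlaps the counted gene TCFL5, and use of strand in counting is not stated. Whether reads of the 2 were kept apart there is therefore uncertain. No library had a fractional count of COL9A3, the sign used here for shared reads. COL20A1 and COL12A1 rose in 2102 EP as well (1.08 and 2.05), each at under 10 CPM. The call of COL20A1 was lost without 2102 EP DMSO replicates 2 or 3 or 2102 EP I-BRD9 replicates 1 or 2 (adjusted p from 0.0612 to 0.142) and with the replicate number as a block (adjusted p = 0.0509), and that of COL12A1 without 2102 EP DMSO replicate 2 or 2102 EP I-BRD9 replicate 1 (adjusted p from 0.0932 to 0.102). In TCam-2 neither passed, at 0.23 and 0.87. COL21A1 passed in neither line (0.88 and 0.29).

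Among the remaining collagens, COL26A1 fell in both lines, a collagen first found in testis and ovary. It stood at 49.6, 49.9 and 55.7 CPM in the controls and 43.8, 37.9 and 42.5 in the treated libraries in 2102 EP (log2 fold change -0.32, SE 0.10, adjusted p = 0.0151). In TCam-2 it stood at 144, 135 and 120.5 and 85.1, 95.7 and 79.6 (log2 fold change -0.62, SE 0.09, adjusted p = 2.35e-05). Groups did not overlap in either line, and the call in 2102 EP was lost without 2102 EP DMSO replicate 3 or 2102 EP I-BRD9 replicate 2 (adjusted p from 0.0755 to 0.0906). COL7A1, the anchoring fibril collagen, stood at 46.6, 40.1 and 54.7 and 45.3, 34.4 and 30.8 in 2102 EP and at 2.48, 3.40 and 1.84 and 3.16, 4.21 and 4.99 CPM in TCam-2. It passed in neither line (-0.36 (SE 0.16) and 0.65 (SE 0.27)). COL18A1, the basement membrane collagen that carries endostatin, and COL6A1 and COL6A2, chains of the beaded filaments of type VI collagen, did not pass in either line. Their log2 fold changes were -0.12, -0.33 and -0.20 in 2102 EP and 0.07, 0.18 and 0.12 in TCam-2. COL28A1 did not pass either.

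**Figure D3:**
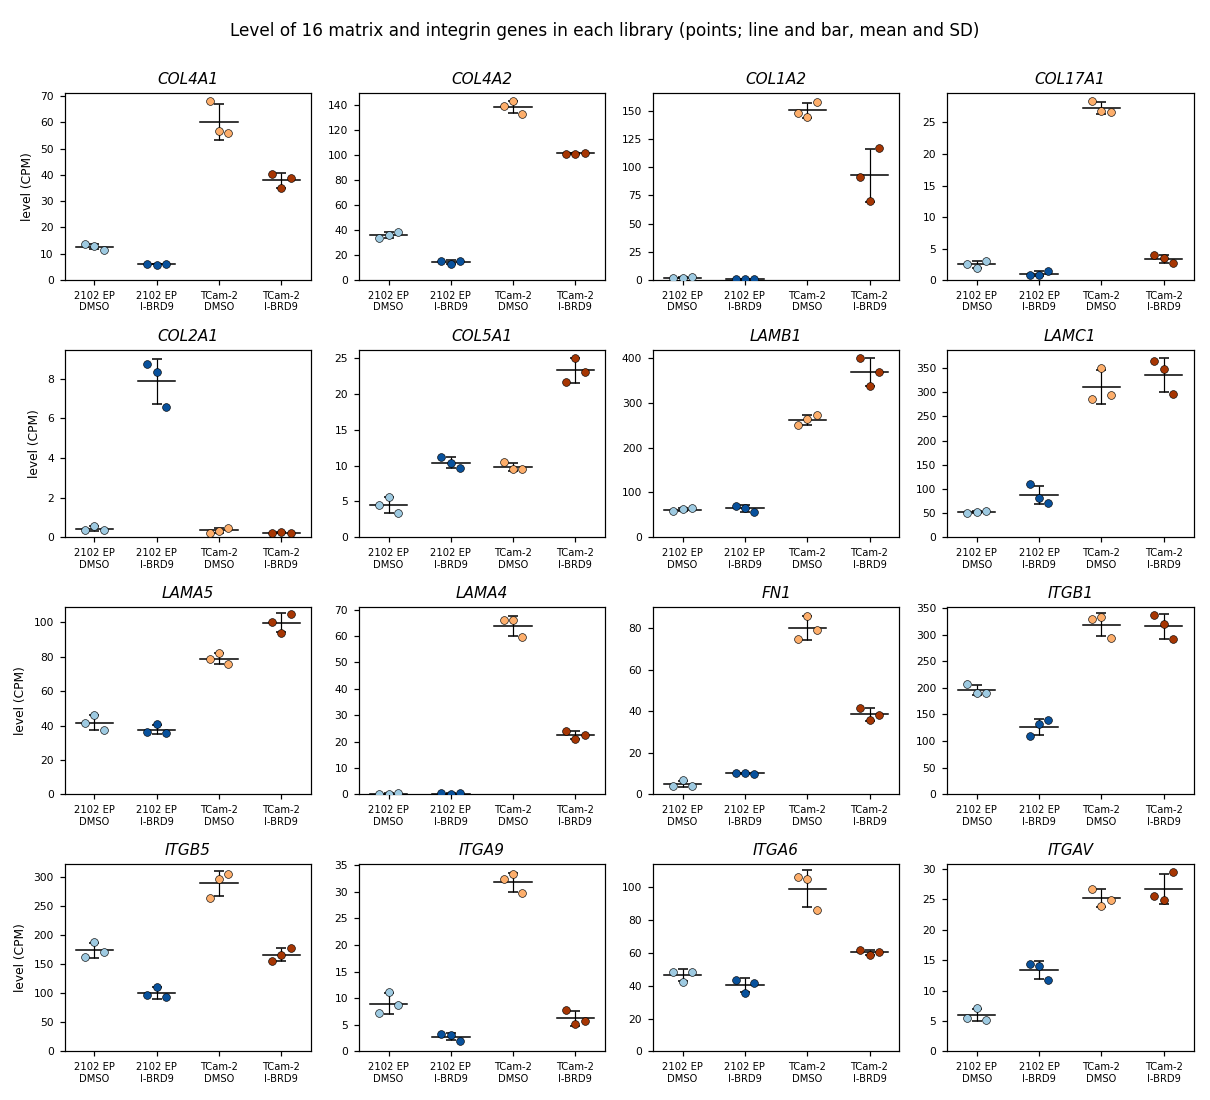
Level in CPM (y axis) of 16 matrix and integrin genes in each library, by group (x axis). Points are libraries, and lines with bars are means and SD. COL4A1, COL4A2, COL17A1, ITGB5 and ITGA9 are lower with I-BRD9 in both lines without overlap, COL5A1 is higher in both, and FN1 goes up in 2102 EP and down in TCam-2.

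Laminins are trimers of an alpha, a beta and a gamma chain. LAMC1, the gamma chain of most laminins, was the laminin that rose in 2102 EP, while LAMB1, LAMB2 and LAMA5 rose and LAMA4 fell in TCam-2. LAMC1 (chr1:183023460-183145592) stood at 49.3, 52.4 and 54.1 CPM in the controls and 109, 81.8 and 71.6 in the treated libraries in 2102 EP (log2 fold change 0.75, SE 0.14, adjusted p = 0.000503). In TCam-2 its groups overlapped, at 286, 350.2 and 294 and 364, 348 and 297 (log2 fold change 0.12, SE 0.13, adjusted p = 0.528). LAMB1 (chr7:107923799-108003255), a beta chain that pairs with it, showed the other pattern. It rose in TCam-2 from 250.0, 263 and 273 to 401, 338 and 370.0 CPM (log2 fold change 0.50, SE 0.09, adjusted p = 9.73e-05) and overlapped in 2102 EP, at 57.7, 62.01 and 64.3 and 70.5, 65.7 and 56.2 (log2 fold change 0.06, SE 0.09, adjusted p = 0.633). An exon of LAMB1 overlaps DLD, and one of LAMA5 overlaps ADRM1, both counted genes.

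LAMA5 (chr20:62307955-62367312), the alpha chain of most epithelial and pluripotent cell laminin, rose in TCam-2 from 78.5, 82.04 and 75.9 to 100.4, 93.8 and 105 CPM (log2 fold change 0.34, SE 0.09, adjusted p = 0.00649). In 2102 EP it stood at 41.2, 46.1 and 37.6 and 36.4, 40.9 and 35.7, with overlap (log2 fold change -0.14, SE 0.10, adjusted p = 0.278). LAMA4, an alpha chain typical of vessels and mesenchyme, fell in TCam-2 from 66.1, 66.02 and 59.6 to 24.03, 21.1 and 22.4 (log2 fold change -1.50, SE 0.16, adjusted p = 1.12e-07). All 6 libraries of 2102 EP were below 1 CPM for LAMA4. LAMB2 rose in TCam-2 from 13.5, 14.01 and 12.9 to 19.9, 16.5 and 22.04 (log2 fold change 0.53, SE 0.16, adjusted p = 0.0114), a call lost without TCam-2 I-BRD9 replicate 3 (adjusted p = 0.0674). In 2102 EP it overlapped, at 10.1, 10.4 and 9.71 and 12.1, 9.02 and 10.9. LAMA1, LAMA2, LAMB3 and LAMC3 passed in neither line, with log2 fold changes of 0.64, -0.40, -0.25 and 0.08 in 2102 EP and -0.03, -0.19, 1.22 and -0.76 in TCam-2.

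Fibronectin, the glycoprotein that cells assemble into fibrils through integrins, went opposite ways in the 2 lines. The 250 bases before the FN1 start are printed for that reason, from chr2:215436069-215436318 of GRCh38.p14 on the minus strand, with capitals for a cAMP response element (TGACGTCA) and a CCAAT box.
FN1 upstream: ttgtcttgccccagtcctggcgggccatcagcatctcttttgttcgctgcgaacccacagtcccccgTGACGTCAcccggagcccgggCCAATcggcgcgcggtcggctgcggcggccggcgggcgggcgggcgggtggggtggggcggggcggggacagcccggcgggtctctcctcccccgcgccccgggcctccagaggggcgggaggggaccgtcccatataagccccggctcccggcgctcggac
TGACGTCA is found in 1.85% of the 35116 RefSeq promoter windows. FN1 (chr2:215360440-215436172) rose in 2102 EP from 4.23, 6.72 and 4.22 to 10.4, 10.2 and 9.59 CPM (log2 fold change 0.99, SE 0.17, adjusted p = 7.73e-05). In TCam-2 it fell from 75.1, 86.2 and 79.3 to 41.7, 35.7 and 38.3 (log2 fold change -1.06, SE 0.12, adjusted p = 3.02e-07). The groups did not overlap in either line, and the changes differed by -2.04 (SE 0.21, adjusted p = 2.17e-07). Perlecan (HSPG2) passed in neither line. It stood at 3.77, 2.83 and 4.73 and 6.41, 4.21 and 4.91 in 2102 EP and at 2.95, 3.71 and 5.02 and 5.74, 5.89 and 6.38 CPM in TCam-2 (0.45 and 0.62). Nidogen 1 (NID1) spread widely within groups: it stood at 29.5, 17.6 and 5.75 and 13.2, 28.1 and 30.6 in 2102 EP and at 37.1, 21.9 and 8.82 and 29.1, 25.1 and 19.8 in TCam-2. Its counts were fractional in 11 of the 12 libraries, which means that reads were shared with other sequences, and its values are uncertain. Nidogen 2 (NID2) was not tested, at no more than 1.36 CPM in any library.

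Among the integrin beta chains, ITGB5 fell in both lines and ITGB1 in 2102 EP. ITGB5 (chr3:124761948-124901418), which pairs with the alpha V chain to bind vitronectin, stood at 163, 188 and 171 CPM in the controls and 97.1, 112 and 93.04 in the treated libraries in 2102 EP (log2 fold change -0.79, SE 0.09, adjusted p = 3.43e-07). In TCam-2 it stood at 264, 298 and 307 and 156, 166 and 178 (log2 fold change -0.80, SE 0.09, adjusted p = 2.45e-07). The groups did not overlap, and the 2 changes differed by -0.01 (SE 0.13, adjusted p = 0.994). ITGB1 (chr10:32900319-33005792), the beta chain shared by most collagen, laminin and fibronectin receptors, fell in 2102 EP from 208, 190.1 and 191 to 109.9, 133 and 139 (log2 fold change -0.62, SE 0.09, adjusted p = 8.28e-06). In TCam-2 it overlapped, at 330.0, 332 and 294 and 336, 319 and 291 (log2 fold change -0.02, SE 0.09, adjusted p = 0.925). Reads of ITGB1 were shared with other sequences in all 12 libraries, and the pseudogene ITGB1P1 was also counted, so its level is uncertain. ITGB3, the beta chain of the vitronectin receptor, rose in 2102 EP from 0.801, 0.118 and 0.128 to 2.86, 2.71 and 1.23 (log2 fold change 2.61, SE 0.60, adjusted p = 0.00157). In TCam-2 ITGB3 stood at 0.590, 0.531 and 0.612 and 1.78, 1.20 and 1.28, without overlap but not past the test (log2 fold change 1.29, SE 0.58, adjusted p = 0.0949). ITGB4, the hemidesmosome chain, passed in neither line (-1.36 and 0.06). ITGB8 ranged from 0.256 to 9.15 CPM within the DMSO libraries of 2102 EP alone and passed in neither line.

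The integrin alpha chains decide which ligand is bound, and ITGA3 rose and ITGA9 fell in both lines. ITGA3, of a laminin receptor, rose in 2102 EP from 4.58, 4.24 and 3.58 to 11.2, 10.3 and 9.37 CPM (log2 fold change 1.31, SE 0.19, adjusted p = 7.67e-06). In TCam-2 it rose from 7.67, 9.76 and 9.43 to 18.6, 18.3 and 17.8 (log2 fold change 1.02, SE 0.16, adjusted p = 4.39e-05). ITGA9, of a receptor for tenascin and other matricellular ligands, fell in 2102 EP from 7.21, 11.1 and 8.69 to 3.27, 3.10 and 2.01 (log2 fold change -1.69, SE 0.23, adjusted p = 4.55e-06). In TCam-2 it fell from 32.3, 33.2 and 29.8 to 7.81, 5.17 and 5.68 (log2 fold change -2.34, SE 0.19, adjusted p = 3.18e-09). For both genes the treated and control libraries did not overlap in either line. The change in TCam-2 minus that in 2102 EP was -0.29 (SE 0.25, adjusted p = 0.514) for ITGA3 and -0.65 (SE 0.31, adjusted p = 0.178) for ITGA9, and neither difference passed the test. ITGAV, which binds fibronectin and vitronectin through their RGD motif, rose in 2102 EP from 5.49, 7.07 and 5.24 to 14.4, 14.02 and 11.7 (log2 fold change 1.17, SE 0.17, adjusted p = 7.57e-06). In TCam-2 its groups overlapped, at 26.8, 23.99 and 24.98 and 25.5, 24.99 and 29.6 (log2 fold change 0.08, SE 0.14, adjusted p = 0.719).

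ITGA6, the other main laminin receptor chain, fell in TCam-2 from 106, 105 and 85.8 to 61.5, 58.5 and 60.5 CPM (log2 fold change -0.71, SE 0.10, adjusted p = 8.79e-06). In 2102 EP it overlapped, at 48.2, 42.1 and 48.3 and 43.6, 35.5 and 41.7 (log2 fold change -0.20, SE 0.11, adjusted p = 0.15). ITGA2, of a collagen receptor, rose in TCam-2 from 7.55, 7.85 and 7.10 to 14.3, 17.1 and 12.8 (log2 fold change 0.97, SE 0.21, adjusted p = 0.000911). In 2102 EP all 3 treated libraries were lower, at 0.682, 0.701 and 1.00 against 1.72, 1.06 and 1.02, a change that did not pass the test (log2 fold change -0.66, SE 0.36, adjusted p = 0.178). ITGA1, of another collagen receptor, stood at 1.72, 1.65 and 2.17 and 2.86, 3.81 and 4.68 in 2102 EP (log2 fold change 1.04, SE 0.36, adjusted p = 0.026) and at 1.53, 2.87 and 1.96 and 1.09, 0.721 and 0.928 in TCam-2 (log2 fold change -1.20, SE 0.40, adjusted p = 0.0255). The rise in 2102 EP was lost without 2102 EP DMSO replicates 1 or 2 or 2102 EP I-BRD9 replicates 2 or 3 (adjusted p from 0.0573 to 0.114) and without the low-count filter (adjusted p = 0.0618). The fall in TCam-2 was lost without TCam-2 DMSO replicate 2 or TCam-2 I-BRD9 replicates 2 or 3 (adjusted p from 0.0594 to 0.145) and without the low-count filter (adjusted p = 0.0624). PELO, a counted gene, overlaps an exon of ITGA1. ITGA5, the classical fibronectin receptor chain, was higher in all treated libraries of both lines without passing the test (log2 fold change 0.37, SE 0.17, adjusted p = 0.0954 in 2102 EP; log2 fold change 0.40, SE 0.17, adjusted p = 0.0821 in TCam-2). ITGA7, ITGA11 and ITGAE passed in neither line, and reads of ITGA11 were shared with other sequences in all 12 libraries.

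Whether the 2 lines responded differently was tested as a difference of log2 fold changes, TCam-2 minus 2102 EP. It passed for 17 members (30.9%, against 13.1% of all genes). The response was more positive in TCam-2 for 7 members (12.7%, against 5.9% of all genes tested) and more negative for 10 (18.2%, against 7.19%). On the negative side stood COL2A1 with a difference of -4.73 (SE 0.78, adjusted p = 0.000179), COL11A1 with -4.33 (SE 0.94, adjusted p = 0.00269) and COL14A1 with -2.28 (SE 0.42, adjusted p = 0.000496). COL2A1 and COL14A1 rose in 2102 EP and passed no test in TCam-2. COL11A1 fell in TCam-2 (log2 fold change -2.76, adjusted p = 0.00326), with 47 counts in the controls and 7 in the treated libraries. Its rise in 2102 EP missed the threshold (log2 fold change 1.58, adjusted p = 0.0586). ITGA1, FN1, COL17A1, ITGAV, COL23A1, LAMC1 and ITGA6 differed in the same sense, from -2.24 to -0.51. The difference for LAMC1 of -0.63 (SE 0.19, adjusted p = 0.0355) was lost without 2102 EP DMSO replicates 1 or 2 or TCam-2 DMSO replicate 2 or TCam-2 I-BRD9 replicate 3 (adjusted p from 0.0591 to 0.0848). That for ITGA6 of -0.51 (SE 0.15, adjusted p = 0.0218) was lost without 2102 EP DMSO replicate 2 or TCam-2 DMSO replicates 1 or 2 (adjusted p from 0.0538 to 0.0636).

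On the positive side stood ITGA2 with 1.63 (SE 0.42, adjusted p = 0.00982) and COL7A1 with 1.01 (SE 0.31, adjusted p = 0.035), and also COL4A2, ITGB1, LAMA5 and LAMB1. Most of these calls did not hold in every run that left out 1 library, though none changed sign. ITGA2 was lost without 2102 EP DMSO replicate 1 (adjusted p = 0.0649). COL7A1 was lost without 2102 EP DMSO replicates 1 or 3 or 2102 EP I-BRD9 replicates 2 or 3 or TCam-2 DMSO replicates 1 or 3 or TCam-2 I-BRD9 replicates 2 or 3 (adjusted p from 0.058 to 0.126), with limma voom (adjusted p = 0.11) and with the replicate number as a block (adjusted p = 0.0646). LAMA5, at 0.48 (SE 0.14, adjusted p = 0.0192), was lost without 2102 EP DMSO replicate 2 or TCam-2 DMSO replicate 3 or TCam-2 I-BRD9 replicate 3 (adjusted p from 0.0512 to 0.0763). LAMB1, at 0.43 (SE 0.13, adjusted p = 0.0249), was lost without 2102 EP DMSO replicates 2 or 3 or 2102 EP I-BRD9 replicate 3 or TCam-2 DMSO replicate 1 or TCam-2 I-BRD9 replicate 1 (adjusted p from 0.0523 to 0.0808). COL4A2 and ITGB1 kept their calls without any 1 library. Without 2102 EP DMSO replicate 1 the count on the positive side was 4 in place of 7.

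**Figure D4:**
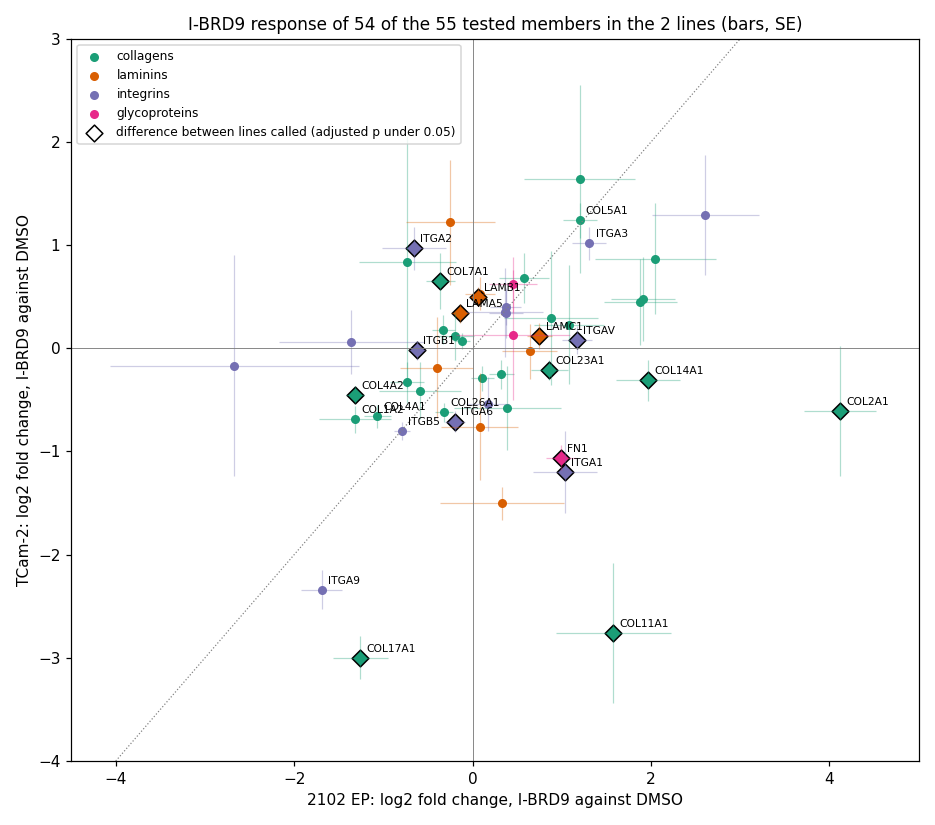
Log2 fold change with I-BRD9 in 2102 EP (x axis) and in TCam-2 (y axis) of the 55 tested members, 1 laminin left out, coloured by class. Bars are SE, the dotted line marks equal change, and diamonds mark members whose responses differed at an adjusted p under 0.05. COL4A1, COL4A2, COL17A1, ITGA9 and ITGB5 lie at the lower left and COL2A1 and FN1 at the lower right.

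TCam-2 and 2102 EP differed in most of these genes whatever the treatment. With DMSO, TCam-2 had more of LAMA4, COL1A2, COL23A1, COL14A1, ITGB4, FN1 and COL17A1 and of the chains LAMC1, LAMB1, COL4A1 and COL4A2, and less of COL7A1, ITGA7 and COL6A1. Of the 55 members, 40 passed (72.7%, against 62.6% of all genes): 30 were higher (54.5%) and 10 lower (18.2%) in TCam-2, whereas 31.7% of all genes were higher and 30.8% lower. The split was 14 to 7 in collagens, 7 to 2 in laminins and 8 to 1 in integrins. Class medians were 1.01, 1.03 and 0.70 on the log2 scale, against 0.016 over all genes. In 41 members (74.5%) the libraries of the lines did not overlap, beside 67.6% of all genes. Line, medium and tumour type cannot be told apart in these differences.

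LAMA4 stood at 0.114, 0 and 0.639 CPM in the DMSO libraries of 2102 EP and 66.1, 66.02 and 59.6 in those of TCam-2 (log2 fold change 7.97, SE 0.29, adjusted p = 2.1e-16). The DMSO libraries of 2102 EP held 6 counts of LAMA4 in all, so the size of this difference is less certain than its SE shows. For COL1A2 the values were 1.95, 2.12 and 2.30 against 148, 145 and 158, or 70.6-fold (log2 fold change 6.14, SE 0.20, adjusted p = 1.68e-15). COL23A1 followed at 2.86, 1.77 and 1.79 against 111, 116 and 97.3, or 49.8-fold (log2 fold change 5.64, SE 0.15, adjusted p = 8.37e-19). FN1 differed 15.8-fold (log2 fold change 3.98, SE 0.15, adjusted p = 2.96e-16) and COL14A1 23.8-fold (log2 fold change 4.57, SE 0.30, adjusted p = 7.62e-12). The alpha 6 to beta 4 pair of hemidesmosomes was higher in TCam-2 in both chains. ITGB4 stood at 0.686, 0.590 and 0.256 against 11.1, 10.5 and 7.22 (log2 fold change 4.18, SE 0.45, adjusted p = 8.32e-08), and ITGA6 at 48.2, 42.1 and 48.3 against 106, 105 and 85.8 (log2 fold change 1.10, SE 0.10, adjusted p = 3.81e-09). Their partner COL17A1 was also higher, 10.9-fold (log2 fold change 3.45, SE 0.22, adjusted p = 5.62e-12).

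The opposite held for COL7A1, at 46.6, 40.1 and 54.7 in 2102 EP against 2.48, 3.40 and 1.84 in TCam-2 (log2 fold change -4.17, SE 0.22, adjusted p = 3.06e-13). ITGA7, a laminin receptor chain of muscle, stood at 13.5, 11.4 and 13.7 against 3.78, 4.14 and 2.20 (log2 fold change -1.92, SE 0.22, adjusted p = 1.13e-07), and its exons overlap the counted gene BLOC1S1. COL6A1 stood at 54.1, 54.6 and 53.4 against 23.2, 28.4 and 28.8 (log2 fold change -1.01, SE 0.14, adjusted p = 1.26e-06). COL28A1 had 56 counts in the 3 DMSO libraries of 2102 EP and 2 in those of TCam-2. Scaled to depth this is a ratio of 29.1, with a 95% counting interval of 7.70 to 246. COL18A1 and COL1A1 were close, with log2 fold changes of 0.08 (SE 0.09) and 0.24 (SE 0.14), and neither passed the test. The calls of LAMB2 (0.42), COL12A1 (1.68) and COL5A3 (-2.12) were at the edge of the threshold. LAMB2 was lost without 2102 EP DMSO replicates 1, 2 or 3 or TCam-2 DMSO replicates 1 or 2 (adjusted p from 0.0514 to 0.0802), without the low-count filter (adjusted p = 0.0789) and with DESeq2 (adjusted p = 0.053). COL12A1 was lost without 2102 EP DMSO replicates 1, 2 or 3 or TCam-2 DMSO replicates 1 or 3 (adjusted p from 0.0514 to 0.153), without the low-count filter (adjusted p = 0.0617), with DESeq2 (adjusted p = 0.0542) and with limma voom (adjusted p = 0.0667). COL5A3 was lost without 2102 EP DMSO replicates 2 or 3 or 2102 EP I-BRD9 replicate 2 or TCam-2 DMSO replicates 1 or 2 (adjusted p from 0.0514 to 0.161), with the replicate number as a block (adjusted p = 0.0516) and with runs of library codes as a block (adjusted p = 0.0509).

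**Figure D5:**
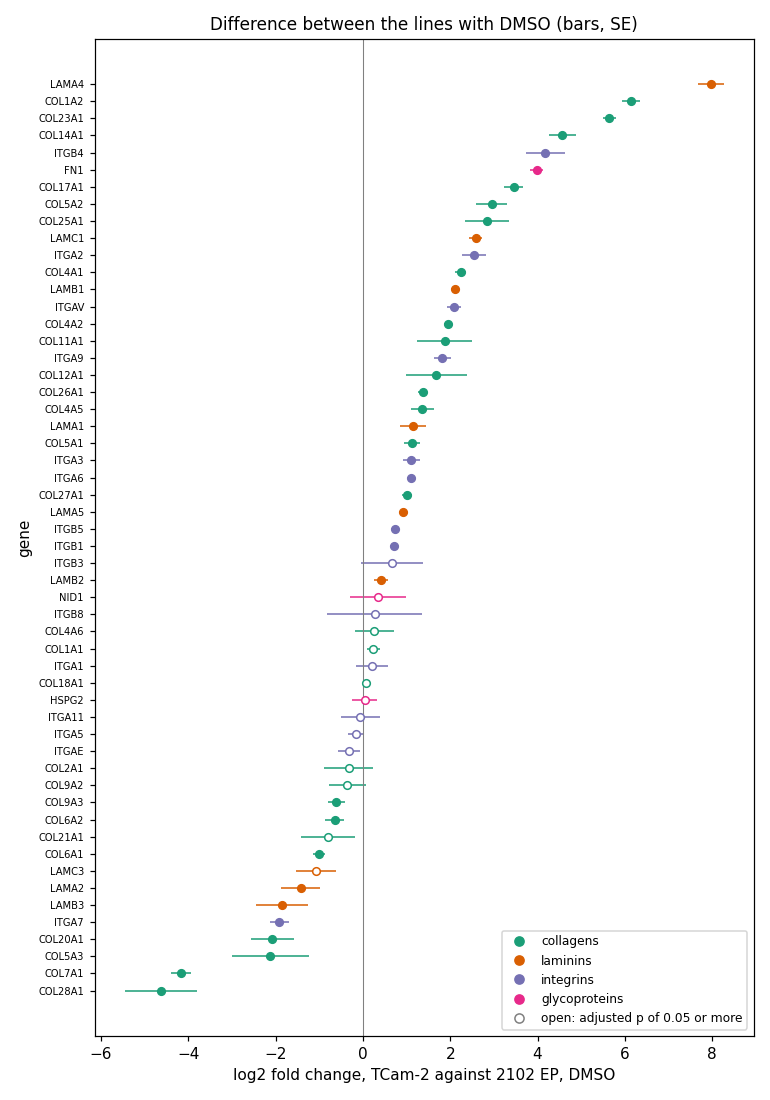
Log2 fold change between TCam-2 and 2102 EP with DMSO (x axis) for the 55 tested members (y axis), 1 laminin left out, coloured by class. Bars are SE, and open points did not pass an adjusted p of 0.05. LAMA4 and COL1A2 lie farthest to the right and COL28A1 and COL7A1 farthest to the left.

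With I-BRD9, 44 members passed (80.0%, against 62.2% of all genes): 28 were higher in TCam-2 (50.9%) and 16 lower (29.1%), beside 31.1% and 31.1% of all genes tested. Of the 16 lower ones 11 were collagens. COL2A1, with 8.73, 8.31 and 6.58 CPM in treated 2102 EP and 0.198, 0.240 and 0.232 in treated TCam-2, was among them (log2 fold change -5.06, SE 0.44, adjusted p = 1.01e-09). COL9A2 was another, at 6.54, 4.81 and 5.47 against 1.28, 2.16 and 1.39 (log2 fold change -1.79, SE 0.36, adjusted p = 0.00015). LAMB1 and LAMC1 remained higher in TCam-2, at 2.53 and 1.95, and so did FN1 at 1.94. In 46 members (83.6%) the treated libraries of the lines did not overlap, beside 66.3% of all genes.

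Genes that build, modify or read this matrix were described from 5 lists. Of all genes tested, 18.2% rose and 18.6% fell in 2102 EP and 15.3% rose and 16.5% fell in TCam-2. Of 24 tested collagen-processing genes, 9 rose (37.5%) and 5 fell (20.8%) in 2102 EP, and 5 rose (20.8%) and 10 fell (41.7%) in TCam-2. The falls in 2102 EP were near the share of all genes. Their median log2 fold changes were 0.16 and -0.19, against 0.002 and 0.007 over all genes. SERPINH1, the collagen chaperone HSP47, fell in 2102 EP (log2 fold change -1.56, SE 0.09, 379.5 ± 22.7 to 128 ± 17.6 CPM) and in TCam-2 (log2 fold change -1.67, SE 0.09, means 456 and 144 CPM). LOXL3, a lysyl oxidase that crosslinks collagen, fell in 2102 EP (log2 fold change -1.72, SE 0.34, 4.17 ± 0.382 to 1.25 ± 0.466 CPM) and in TCam-2 (log2 fold change -1.75, SE 0.31, 5.79 ± 1.46 to 1.71 ± 0.139 CPM). Its relative LOXL1 rose in TCam-2 (log2 fold change 2.07, SE 0.33, 1.59 ± 0.431 to 6.67 ± 1.60 CPM). ADAMTS3, which trims procollagen, rose in 2102 EP (log2 fold change 1.75, SE 0.40, 1.10 ± 0.621 to 3.72 ± 0.832 CPM).

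Of 26 tested matricellular genes, fibril partners and proteoglycans, 9 rose (34.6%, against 18.2% of all genes) and 4 fell (15.4%, against 18.6%) in 2102 EP. In TCam-2, 2 rose (7.69%, against 15.3%) and 6 fell (23.1%, against 16.5%). The medians were 0.59 and -0.01. TGFBI, an adhesion protein that binds collagen and integrins, rose in 2102 EP (log2 fold change 2.36, SE 0.21, 2.81 ± 0.584 to 14.6 ± 1.44 CPM), as did THBS1, thrombospondin 1 (log2 fold change 2.08, SE 0.30, 2.34 ± 0.549 to 9.99 ± 1.16 CPM). Fibulins and versican fell in TCam-2: EFEMP1 (log2 fold change -2.22, SE 0.17, 89.7 ± 13.8 to 19.3 ± 5.27 CPM), FBLN5 (log2 fold change -1.81, SE 0.20, 18.6 ± 1.24 to 5.33 ± 0.597 CPM) and VCAN (log2 fold change -1.49, SE 0.14, 15.6 ± 1.05 to 5.58 ± 0.686 CPM). Of 21 tested proteases and inhibitors, 7 rose (33.3%) and 6 fell (28.6%) in each line, against 18.2% and 18.6% of all genes in 2102 EP and 15.3% and 16.5% in TCam-2. The metalloprotease inhibitors TIMP4 and TIMP3 went opposite ways in 2102 EP, TIMP4 down (log2 fold change -2.87, SE 0.17, 119 ± 15.1 to 16.3 ± 0.920 CPM) and TIMP3 up (log2 fold change 2.72, SE 0.38, 0.674 ± 0.157 to 4.50 ± 1.01 CPM). ADAMTS9, a protease of proteoglycans, fell in TCam-2 (log2 fold change -2.31, SE 0.26, 20.1 ± 0.513 to 4.01 ± 0.862 CPM).

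Of 26 tested integrin adaptor and focal adhesion genes, 4 rose (15.4%, against 18.2% of all genes) and 9 fell (34.6%, against 18.6%) in 2102 EP. In TCam-2, 4 rose and 4 fell (15.4% each), near the 15.3% and 16.5% of all genes. The medians were -0.01 and 0.09. The focal adhesion proteins zyxin and paxillin fell in 2102 EP, ZYX (log2 fold change -0.97, SE 0.11, 117 ± 15.5 to 59.7 ± 6.91 CPM) and PXN (log2 fold change -0.93, SE 0.10, 133 ± 11.1 to 69.6 ± 9.70 CPM), and talin 2 rose (log2 fold change 0.95, SE 0.11, 28.4 ± 2.61 to 55.04 ± 7.75 CPM). In TCam-2 filamin B rose (log2 fold change 0.74, SE 0.09, 82.8 ± 9.76 to 138 ± 6.26 CPM). ACTN1, alpha-actinin 1, fell there (log2 fold change -0.67, SE 0.07, 489 ± 17.6 to 308 ± 13.5 CPM), with reads shared in all 12 libraries. Of 22 other basement membrane genes and non-integrin receptors, 8 rose (36.4%, against 18.2% of all genes) and 4 fell (18.2%, near the 18.6% of all genes) in 2102 EP. In TCam-2, 5 rose (22.7%, against 15.3%) and 6 fell (27.3%, against 16.5%). The medians were 0.02 and 0.06. CD44, the hyaluronan receptor, rose in TCam-2 (log2 fold change 1.35, SE 0.28, 2.67 ± 0.914 to 6.75 ± 2.00 CPM), and VWA1, a matrix protein that binds perlecan, fell (log2 fold change -1.12, SE 0.09, 189 ± 1.41 to 87.1 ± 5.94 CPM). SMOC1, a calcium-binding basement membrane protein, rose in 2102 EP (log2 fold change 4.21, SE 0.80, 0.114 ± 0.198 to 2.46 ± 0.510 CPM). The DMSO libraries held 3 counts of SMOC1 in all and the treated ones 64, so the size of this rise is uncertain.

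The 21 members below the filter were COL3A1, COL4A4, COL6A3, COL6A5, COL8A1, COL8A2, COL9A1, COL11A2, COL13A1, COL15A1, COL16A1, COL19A1, COL22A1, COL24A1, LAMA3, NID2, ITGA10, ITGAL, ITGAX, ITGB2 and ITGB6. No library held more than 1.59 CPM of any of them. COL15A1 and COL6A5 were counted only in DMSO libraries of TCam-2, at 0, 0.318 and 0.980 and 0.590, 0.212 and 0.367 CPM. LAMA3, the alpha chain of the hemidesmosome laminin, stood at 0.686, 0.943 and 1.41 in the controls and 0, 0.200 and 0.112 in the treated libraries in 2102 EP. ITGAL, ITGAX and ITGB2, chains of leukocyte integrins, stayed at or below 0.781 CPM.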

How the data were processed

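RNA was extracted from the 12 cultures and made into 3′ end libraries with the Lexogen QuantSeq kit, per the labels' protocols. The authors deposited 1 table of estimated counts per gene. Trim Galore, STAR 2.7.11b, Salmon 1.9.0, R 4.2.0, DESeq2 and the build GRCh38 are named in the submitters' processing notes; the sources used here name neither the counted annotation nor how strand was used. The deposited estimated counts were rounded to whole numbers; a count more than 0.01 from a whole number was taken as a sign of reads shared between sequences. All 12 libraries entered 1 model.

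Genes were filtered with filterByExpr, which left 15614, scaled by TMM and tested with edgeR 4.0.16 (quasi-likelihood, 1 mean per group, 8 residual degrees of freedom, common biological coefficient of variation 0.127) in R 4.3.3. Adjustment followed Benjamini and Hochberg across every gene tested; calls needed an adjusted p under 0.05. The code was tested on simulated data. Class sums were compared by exact permutation tests (2-sided). Counting intervals and limits cover counting error only. Each SE is the log2 fold change without its sign, divided by the square root of the test's F value. It can be too small where a group has few counts. Replicates correlated at Pearson's r of 0.98 to 0.989 across genes, which are not independent replicates. Alternatives used DESeq2 1.42.0 and limma 3.58.1 (voom), other scalings and filters, blocks and the omission of each library.

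Named with values were called members with at least 10 CPM on average in the highest group, up to 12 in each direction, those reaching 100 CPM, the type IV collagen neighbours, the 4 glycoproteins and ITGB1, ITGAV, LAMB1 and LAMC1. Members named beyond that rule, such as COL2A1, COL11A1, COL9A2, ITGA1 and ITGB3, were chosen after their values were seen. From each list of other matrix genes up to 3 with the largest called change per line could be named. The members and the lists were chosen with earlier results of these data known. Gene positions are from GENCODE 29 (76 members matched). Promoter sequences are from RefSeq (GRCh38.p14), where 53 of the 76 members matched. The values of 1 member, which enters the counts and sums, are not reported here.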

Additional observations from a re-analysis of the deposited data

Results flagged for a closer look

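The response to I-BRD9 differed between the lines for 17 members by edgeR's test of the difference itself (log2 fold change in TCam-2 minus that in 2102 EP). It was more negative in TCam-2 for the collagens COL2A1 (-4.73, adjusted p = 0.000179), COL11A1 (-4.33, adjusted p = 0.00269), COL14A1 (-2.28, adjusted p = 0.000496), COL17A1 (-1.74, adjusted p = 0.00388) and COL23A1 (-1.07, adjusted p = 0.00295). The same held for the laminin chain LAMC1 (-0.63, adjusted p = 0.0355), the integrin chains ITGA1 (-2.24, adjusted p = 0.00641), ITGAV (-1.09, adjusted p = 0.0012) and ITGA6 (-0.51, adjusted p = 0.0218) and FN1 (-2.04, adjusted p = 2.17e-07). It was more positive in TCam-2 for the integrin chains ITGA2 (1.63, adjusted p = 0.00982) and ITGB1 (0.61, adjusted p = 0.00151), the laminin chains LAMA5 (0.48, adjusted p = 0.0192) and LAMB1 (0.43, adjusted p = 0.0249) and the collagens COL7A1 (1.01, adjusted p = 0.035) and COL4A2 (0.87, adjusted p = 7.01e-05). FN1 and ITGA1 passed the test in each line with opposite signs. No explanation of these differences was tested.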

How the results depend on the processing

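Of 144 member calls over the 5 comparisons, none reversed under any alternative run. DESeq2 size factors and upper-quartile scaling lost 0, DESeq2 and limma voom 3 each, the filter on a summed count of 10 lost 2, no filter 7, and leaving out a library 4 to 12. A fit of only the groups compared lost 1 of the 121 calls that it could test. There 47 to 53 members passed the low-count filter in place of 55. Called members below it, and the difference between the lines, had no test in that run. Same-numbered replicates deviated together at r of -0.162 to 0.195, with 5 of 18 pairs over 0.1. Pairs with other numbers had r of -0.216 to 0.238, with 8 of 36 over 0.1. Mean r was 0.0168 for same numbers and -0.00848 for others, which does not show that the cultures were unpaired. Among replicates 1 of 2102 EP DMSO, TCam-2 DMSO and TCam-2 I-BRD9, r was 0.195, 0.15 and 0.179. Against replicate 1 of 2102 EP I-BRD9 these had r of -0.162, -0.135 and 0.00999. ITGB8 and NID1 were highest in replicate 1 of those 3 groups and lowest in replicate 1 of 2102 EP I-BRD9. With the replicate block 4 calls were lost, and 13 members rose in 2102 EP in place of 14. A block of library codes lost 2. Without 1 library, members called higher and lower numbered 11 to 16 and 7 to 11 in 2102 EP, 5 to 9 and 11 to 14 in TCam-2, 4 to 9 and 8 to 12 for the difference, 27 to 30 and 8 to 11 between the lines with DMSO, and 27 to 29 and 12 to 16 with I-BRD9; the 4 came without 2102 EP DMSO replicate 1. Log2 ratios of class sums without the most counted gene were: for glycoproteins, 0.29 in place of -0.544 with I-BRD9 in TCam-2, which reverses it, and 0.276 and 0.0299 between the lines with DMSO and I-BRD9; for collagens, 1.21 and 1.02 between the lines; for laminins, 0.0378 in 2102 EP and 1.73 between the lines with DMSO; for integrins, -0.284 in 2102 EP, -0.505 in TCam-2 and 0.55 between the lines with I-BRD9. These shifts follow from the removal of LAMC1, ITGB1, COL18A1 or FN1. Without 1 library the glycoprotein ratio ranged from 0.359 to 1.01 in 2102 EP and from -0.635 to -0.479 in TCam-2. Members under about 1 CPM are limited by depth.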
